A study of Homo sapiens with 6 samples.

Results

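SW780 is a human bladder cancer cell line that carries a fusion of the FGF receptor gene FGFR3 with a partner labelled BAIBP2L1, while RT4 and RT112, also bladder cancer lines, both carry an FGFR3-TACC3 fusion. Here the untreated state of SW780 was described: for each of 10066 assembled loci, its level in the SW780 DMSO library was set against the mean of the RT4 DMSO and RT112 DMSO libraries. These 3 libraries came from a study of 6, in which each line received DMSO or quisinostat for 2 days, with 1 library per line and treatment. Quisinostat blocks histone deacetylases (HDACs), enzymes that remove acetyl groups from histones. It was given at 50 nM to RT4, 10 nM to RT112 and 25 nM to SW780 cells. SW780 cells grew in DMEM, RT112 cells in DMEM with added glutamine and non-essential amino acids, and RT4 cells in McCoy's 5A medium. Line, medium and source of the cells therefore cannot be told apart. The SW780 quisinostat library is named SW780 in its title but SW781 in its cell line label, and it was taken as SW780.

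Bladder cancer lines differ in which urothelial programme they keep, luminal (uroplakins, PPARG, GATA3) or basal and squamous (KRT5, KRT14, TP63), and in the growth factor receptor they depend on. An FGFR3 fusion keeps the receptor's kinase and signals through the RAS and MAPK route, whose activity is commonly read from feedback genes such as SPRY, DUSP and ETV family members. NRF2, encoded by NFE2L2, is a transcription factor that switches on detoxifying and antioxidant enzymes once its inhibitor KEAP1 releases it, by binding the antioxidant response element.

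The deposited unit is FPKM, in which the fragments of a locus are divided by its length and by the size of the library. Sequencing depth is unknown. Median levels ran from 6.59 to 7.39 FPKM per library, and each library listed 213 to 534 loci at 0. A difference below is log2(FPKM + 1) in SW780 minus log2(mean FPKM + 1) in the other 2 lines, so it understates the difference of genes with low values. A locus was counted when this difference reached 1, and it was called apart from both lines when the difference to the nearer of the 2 lines also reached 1 on the same side. With 1 library per line these differences have no replicate check and no p-value. The test used below is limma over all 6 libraries with line and treatment as terms, and other limma fits are given near the end. The fit over all 6 treats the DMSO and the quisinostat library of a line as its 2 samples, which are not separate cultures under one condition.

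Of the 10066 loci, 632 (6.28%) were higher in untreated SW780 cells by 1 or more and 896 (8.9%) were lower. The mean of the 2 log2 values in place of the log2 of the mean gave 766 higher and 696 lower, so the balance of the sides depends on this choice. Apart from both lines were 418 higher loci (4.15%) and 245 lower loci (2.43%), together 6.59% of loci, against 11.6% for RT4 and 7.12% for RT112 by the same measure. The median difference over all loci was 0.00. Loci without a gene name made up 23.4% of those higher than both lines, 11.0% of those lower than both, and 9.11% of all loci.

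**Figure D1:**
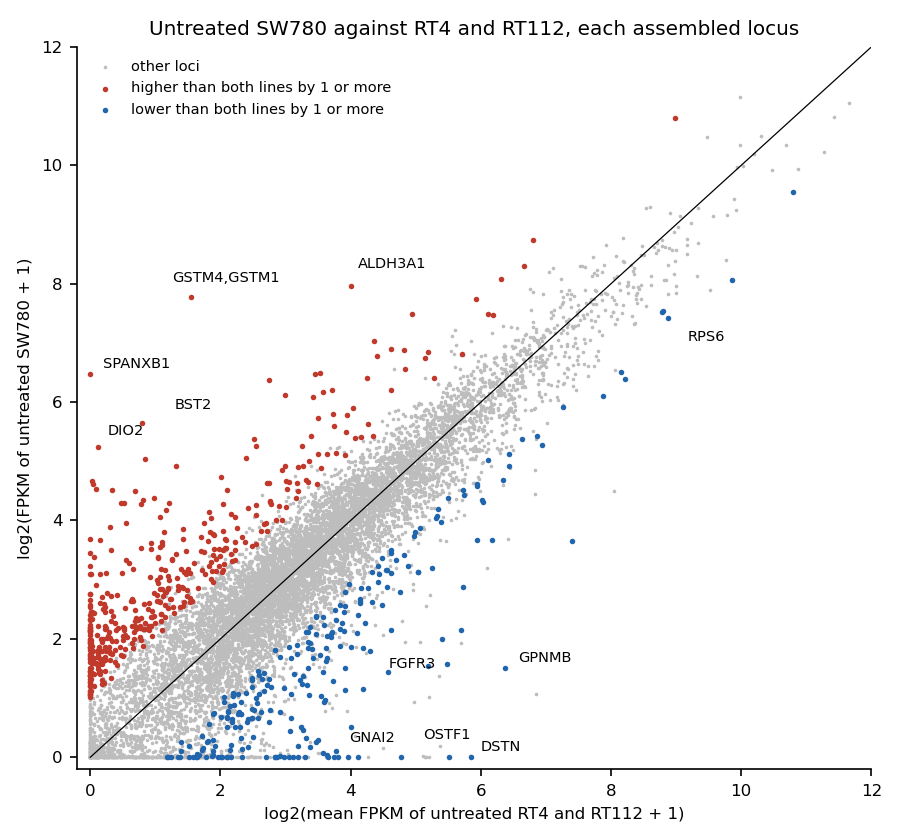
Each point is 1 assembled locus, with log2(mean FPKM + 1) of untreated RT4 and RT112 on the horizontal axis and log2(FPKM + 1) of untreated SW780 on the vertical axis, and the line marks equal values. The 418 red and 245 blue points lie 1 or more above or below both lines, with SPANXB1 and the GSTM4,GSTM1 locus far above and DSTN, OSTF1 and GNAI2 at 0 in SW780.

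In limma over both treatments, 97 of 9430 tested loci (1.03%) were higher in SW780 and 84 (0.891%) were lower at an adjusted p under 0.05. The fit includes the DMSO libraries in which the loci below were chosen, so its adjusted p-values for them are not separate support. Every one of these calls was lost when the SW780 DMSO, the SW780 quisinostat or the RT4 quisinostat library was left out, and 1 higher and 3 lower were left without the RT4 DMSO library. At an unadjusted p under 0.05, limma had 359 higher and 340 lower loci without the SW780 DMSO library, 351 and 303 without the SW780 quisinostat library, and 1271 and 1175 without the RT4 quisinostat library. At that threshold the full fit had 1207 higher (12.8%) and 977 lower loci (10.4%). An adjusted p below is from this limma fit with Benjamini-Hochberg adjustment over its 9430 loci.

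SPANXB1, a cancer-testis gene on chromosome X (X:141002591-141003706), was listed at 0 FPKM in untreated RT4 and RT112 cells and at 87.9 FPKM in SW780 cells. Under quisinostat it was at 226.3 FPKM in SW780, 0 in RT4 and 1.01 in RT112 cells. It belongs to a family of near-identical copies, so its reads may be shared with its relatives. DIO2, the deiodinase that activates thyroid hormone (14:80197527-80387757), was at 0.16, 0 and 36.9 FPKM in untreated RT4, RT112 and SW780 cells. Its quisinostat values were 7.53, 1.14 and 26.5 FPKM in the same order, so the gap narrowed from 5.13 to 2.36 on the log2 scale.

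BST2, the interferon-inducible tetherin that holds virus particles at the cell surface, was at 0.59, 0.87 and 48.9 FPKM in untreated RT4, RT112 and SW780 cells. SUCNR1, the receptor for succinate, was at 0, 0.05 and 23.4 FPKM. Under quisinostat both stayed near their level in SW780 cells, at 54.2 FPKM for BST2 and 28.1 FPKM for SUCNR1. In RT4 cells they then stood at 17.5 and 7.77 FPKM. Neither passed the limma test (adjusted p 0.0615 for BST2 and 0.0559 for SUCNR1). RHOXF1-AS1, an antisense RNA, was at 0.03, 0 and 24.5 FPKM untreated, and whether the counting used strand is not stated, so reads of its partner gene cannot be told apart.

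Other genes of the top 12 act on small molecules. SULT1A1, which adds sulfate to phenols, was at 0.29, 0.57 and 18.6 FPKM in untreated RT4, RT112 and SW780 cells and at 0.12, 0.96 and 14.5 FPKM under quisinostat. SW780 was far above both lines in both treatments, with a limma difference of 3.59 (SE 0.31, adjusted p 0.0142). ARSD, a sulfatase, was listed at 0 in both other untreated lines and at 11.9 FPKM in SW780 cells, with 8.99 FPKM under quisinostat (adjusted p 0.0203 by limma). AKR1B10, a reductase of aldehydes and ketones, was at 0.85, 0.75 and 32.1 FPKM untreated and at 5.28, 0.49 and 37.4 FPKM under quisinostat (adjusted p 0.0274 by limma). ABCG2, an efflux pump that carries many drugs, was at 1.63, 1.35 and 29.2 FPKM untreated.

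ABCG2 did not last. Under quisinostat it was at 7.85 FPKM in SW780 and 13.4 FPKM in RT4 cells, and the difference to the mean of the other lines went from 3.60 to 0.13. KRTCAP3 was at 0, 0.12 and 22.1 FPKM untreated and at 15.4 FPKM in SW780 cells under quisinostat (adjusted p 0.0121 by limma). GKN1, a secreted protein of gastric mucosa, was at 0, 0.77 and 18.6 FPKM untreated and at 2.55 FPKM in SW780 cells under quisinostat. TCOF1, whose product treacle acts in ribosomal RNA synthesis, was at 0.07, 0.15 and 11.7 FPKM untreated. Dividing cells use TCOF1, so a value near 0 in this table need not mean that a transcript is absent.

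**Figure D2:**
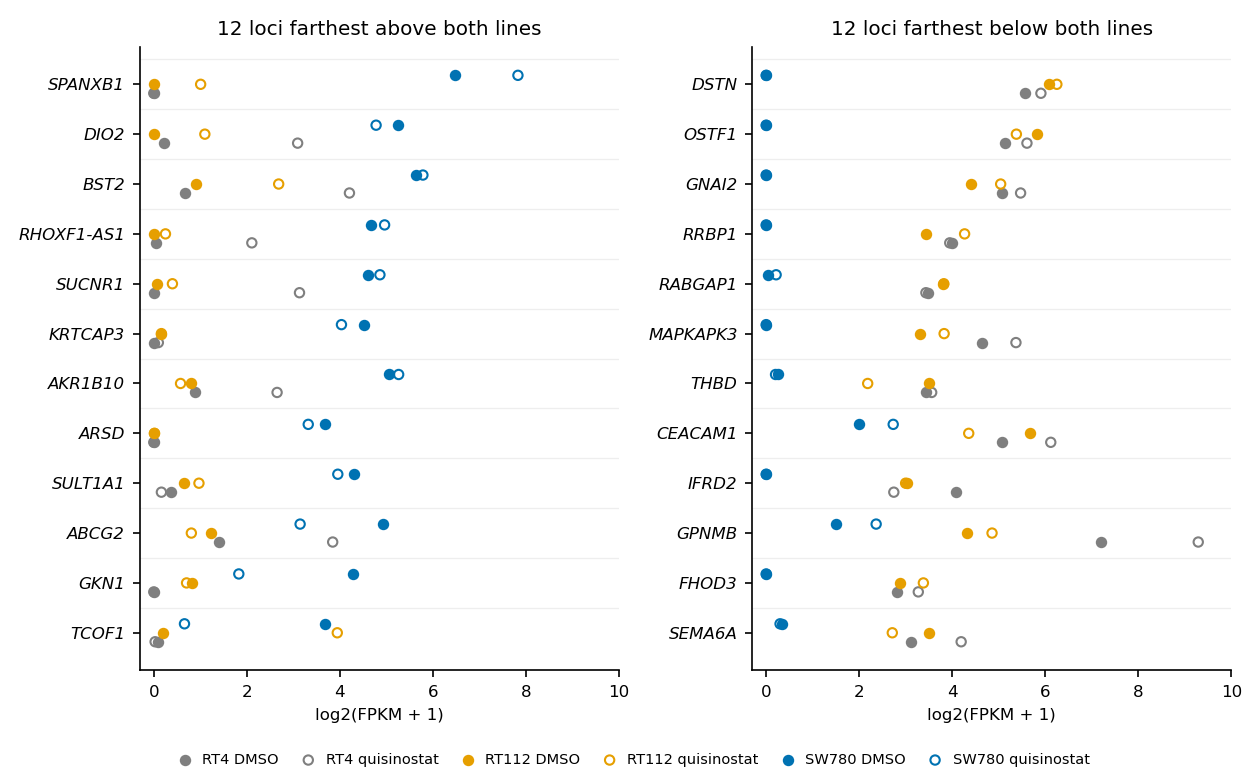
The 12 loci with exactly 1 gene name that lie farthest above (left) and below (right) both other lines, with log2(FPKM + 1) on the horizontal axis and 1 symbol per library, filled for DMSO and open for quisinostat. SW780 (blue) stands clear of both lines in the DMSO libraries by the choice of loci, and under quisinostat the gap to the mean of the other lines goes from 3.60 to 0.13 for ABCG2 and from 3.52 to -2.38 for TCOF1.

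On the lower side, 6 of the 12 loci farthest below both lines were listed at 0 in the untreated SW780 library and at or close to 0 in its quisinostat library. DSTN, an actin-depolymerizing protein (20:17569863-17609919), was at 46.2 FPKM in untreated RT4, 67.1 FPKM in RT112 and 0 in SW780 cells. OSTF1, an SH3 domain protein (9:75088543-75147265), was at 34.0, 55.6 and 0 FPKM, and GNAI2, an inhibitory G protein subunit (3:50226292-50259355), at 32.5, 20.2 and 0 FPKM. The 3 loci were at or next to 0 in the SW780 quisinostat library too, and the limma adjusted p was 0.00214 for DSTN and 0.00454 for each of OSTF1 and GNAI2. Because these genes are listed at 0, the size of their difference is set by the pseudocount and no fold is given.

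RRBP1, a ribosome-binding protein of the endoplasmic reticulum, was at 15.02, 9.88 and 0 FPKM in untreated RT4, RT112 and SW780 cells, and 0 again in SW780 cells under quisinostat. MAPKAPK3, a kinase downstream of p38, was at 23.8, 8.96 and 0 FPKM and IFRD2 at 15.9, 7.18 and 0 FPKM, each with 0 in the second SW780 library. RABGAP1, a GTPase-activating protein for RAB proteins, was at 10.1, 12.9 and 0.03 FPKM, and FHOD3, a formin, at 6.04, 6.33 and 0.004 FPKM. These 5 loci were lower in SW780 in limma, with adjusted p between 0.00754 and 0.0276. That fit includes the DMSO libraries by which they were chosen, so it is no separate support.

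THBD, the thrombin receptor thrombomodulin, was at 9.79, 10.3 and 0.20 FPKM in untreated RT4, RT112 and SW780 cells and at 0.15 FPKM in SW780 cells under quisinostat (adjusted p 0.0346 by limma). SEMA6A, a semaphorin, was at 7.66, 10.3 and 0.26 FPKM untreated (adjusted p 0.0384 by limma). CEACAM1, a cell adhesion molecule, was at 32.6, 50.0 and 2.99 FPKM untreated, with 5.64 FPKM in SW780 cells under quisinostat. GPNMB, a membrane glycoprotein of lysosomes and melanosomes, was at 145.5, 18.9 and 1.84 FPKM, and under quisinostat at 624.6, 28.0 and 4.15 FPKM. Its limma difference was -4.48 (SE 0.35, adjusted p 0.0121), and RT4 cells had the highest level in both treatments.

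Several of the loci listed at 0 are neighbours. At 0.1 FPKM or less in both SW780 libraries and at 1 FPKM or more in both other untreated lines were 28 loci with a known position, of which 15 were at 0 in both SW780 libraries. This rule was chosen after the values were seen. By the same rule, 30 loci were near 0 in RT4 and 33 in RT112. In SW780, 13 of the 28 fell into 3 runs of consecutive loci of the table, against 6 of 30 in RT4, in 3 runs, and 0 of 33 in RT112. The longest run had 9 loci, on chromosome 3 from 49940007 to 50649297 (709291 bases, GENCODE 29 positions on GRCh38): RBM6,RBM5 (joined in 1 locus), SEMA3F, GNAI2, IFRD2, HYAL2,TUSC2, RASSF1, NPRL2, TMEM115 and MAPKAPK3.

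In untreated RT4 cells these 9 loci lay between 4.91 and 32.5 FPKM, in RT112 cells between 1.67 and 20.2 FPKM, and in SW780 cells 8 were listed at 0 and RBM6,RBM5 was at 0.05 FPKM. Quisinostat left all 9 at or below 0.02 FPKM in SW780 cells. RASSF1, a gene often silenced in tumours, was at 4.91, 1.67 and 0 FPKM in untreated RT4, RT112 and SW780 cells, and SEMA3F, a secreted semaphorin, at 24.2, 5.01 and 0 FPKM. On the side of the lower coordinates, MST1R, a receptor tyrosine kinase gene, was at 0.38 FPKM in untreated SW780 cells against 11.8 and 5.53 FPKM, and TRAIP next to it was at 5.34 FPKM. On the other side, MANF was at 17.9 FPKM in SW780 cells, close to the 17.5 FPKM of RT112 cells. DNA copy number and methylation were not measured in these files.

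**Figure D3:**
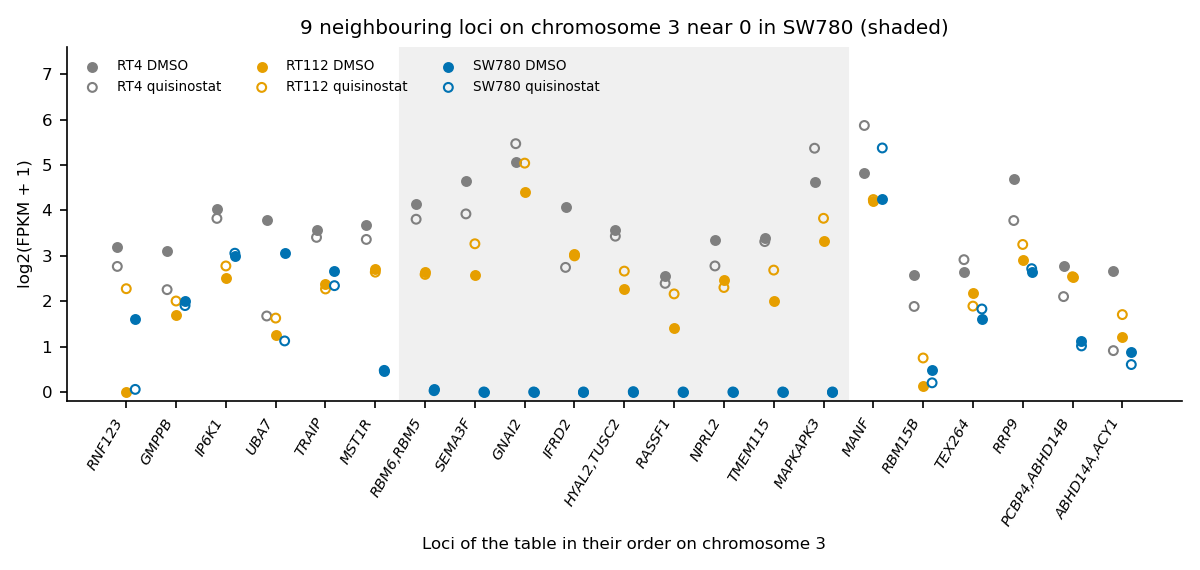
Loci of the table in their order along chromosome 3, with log2(FPKM + 1) in each of the 6 libraries, filled for DMSO and open for quisinostat. In the 9 shaded loci both SW780 symbols lie at or next to 0 while RT4 and RT112 are expressed, and MANF on the right and TRAIP on the left are expressed in SW780.

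The other 2 runs had 2 loci each. DSTN and RRBP1 lie next to each other on chromosome 20 (20:17569863-17682295), while the loci of the table on either side, SNRPB2 and SNX5, were at 18.9 and 19.5 FPKM in untreated SW780 cells. LOXL1, a lysyl oxidase that cross-links elastin (15:73925989-73952137), was at 5.36, 10.99 and 0 FPKM untreated, and its overlapping antisense neighbour LOXL1-AS1 was at 2.67, 3.49 and 0 FPKM. SHH, the Hedgehog ligand of urothelium, stood alone at 12.2, 5.48 and 0.007 FPKM. CDKN2A, CDKN2B and MTAP, neighbours on chromosome 9 that bladder tumours often lose, were not among the gene names of the table. KLHL9 on the same chromosome arm was at 5.34, 7.02 and 0.002 FPKM.

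Among the gene lists with at least 10 loci found, the highest share of higher loci was in detoxifying enzymes. Of 34 loci for NRF2 targets and xenobiotic enzymes, 15 (44.1%) were higher by 1 or more in untreated SW780 cells against 6.28% of all loci, and 1 was lower against 8.9%. Apart from both lines were 12 higher and 0 lower, and the list's median difference was 0.70 against 0.00 over all loci. In limma 3 of 33 tested were higher and 0 lower at an adjusted p under 0.05, and 12 higher and 1 lower at an unadjusted p under 0.05, which 12.8% and 10.4% of all tested loci passed. NFE2L2 itself was at 55.4, 44.0 and 56.1 FPKM in untreated RT4, RT112 and SW780 cells, and KEAP1, lowest in SW780, at 15.1, 12.4 and 8.72 FPKM.

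The promoters of the higher members are shown beside their levels because the list includes NRF2 targets. It also holds other xenobiotic enzymes, NFE2L2 and KEAP1, and a role of NRF2 in these levels was not tested. Promoter sequences, 250 bases before to 50 after the gene start, came from RefSeq on GRCh38.p14, and 10 of the 14 higher loci with a single gene name had one. The core of the antioxidant response element, TGACNNNGC on either strand, was found in 4 of the 10, in 2 of 15 promoters of the list's other single-name members and in 15.5% of the 6668 promoters matched to single-name loci. The core can overlap TGACTCA, the AP-1 site. The stretches around the core in those 4 promoters are given 5′ to 3′ on the strand of the match, with the core in capitals.
GCLM, chr1:93909446-93909474, plus strand: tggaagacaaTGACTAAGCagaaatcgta
PGD, chr1:10398853-10398881, minus strand: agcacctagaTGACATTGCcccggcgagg
ME1, chr6:83431170-83431198, minus strand: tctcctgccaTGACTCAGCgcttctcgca
GSTP1, chr11:67583736-67583764, plus strand: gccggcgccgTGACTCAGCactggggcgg

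The core in GCLM began 34 bases before the gene start, that of GSTP1 66 bases before and that of PGD 201 bases before. ME1 held a second match 11 bases after the gene start. A match is a description of these letters and not of a bound site.

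Among the glutathione enzymes, the locus that joins GSTM4 and GSTM1 was at 1.16 FPKM in untreated RT4, 2.70 FPKM in RT112 and 219.2 FPKM in SW780 cells. Under quisinostat it was at 3.56, 3.0 and 123.1 FPKM, and the limma difference was 5.57 (SE 0.40, adjusted p 0.0105). Reads of these transferases, which conjugate glutathione to electrophiles, cannot be assigned to 1 of the 2 genes here. GSTM3 was at 12.6, 1.28 and 68.7 FPKM untreated, but under quisinostat RT4 cells, at 47.0 FPKM, were above SW780 cells, at 31.9 FPKM. GSTP1 was listed at 0 in both RT4 libraries, at 263.2 FPKM in untreated RT112 and at 291.4 FPKM in untreated SW780 cells. Its limma call (adjusted p 0.00754) therefore rests on RT4, since SW780 and RT112 differed by 0.15 on the log2 scale.

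For glutathione synthesis, SLC7A11, the cystine importer, was at 2.84, 2.25 and 16.7 FPKM in untreated RT4, RT112 and SW780 cells. GCLM, the modifier subunit of the rate-limiting ligase, was at 9.17, 8.03 and 29.1 FPKM, whereas GCLC, the catalytic subunit, was at 26.9, 9.34 and 28.3 FPKM. SW780 was thus above both lines for the importer and the modifier subunit, and level with RT4 for the catalytic subunit. For the supply of NADPH, PGD was at 52.2, 103.7 and 270 FPKM and ME1 at 6.86, 11.7 and 31.2 FPKM.

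ALDH3A1, an aldehyde dehydrogenase, was at 25.7, 4.51 and 249.2 FPKM untreated, and in SW780 cells it was at 20.9 FPKM under quisinostat. The aldo-keto reductases AKR1C1, AKR1C3 and AKR1B1 were at 118, 424.4 and 313.4 FPKM in untreated SW780 cells. In RT4 and RT112 cells AKR1C1 was at 7.6 and 39.4 FPKM, AKR1C3 at 148.2 and 71.9 FPKM, and AKR1B1 at 130.6 and 71.0 FPKM. AKR1C genes are near copies of each other, and AKR1C2 was at 66, 32.6 and 68.1 FPKM, with SW780 next to RT4. CYP4B1, a monooxygenase, was the 1 lower member, at 161, 7.84 and 11.8 FPKM, where RT4 alone was high.

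Most of this difference did not last. Against the untreated mean of the other lines, 7 of the 15 higher loci kept a difference of 1 or more in the SW780 quisinostat library, and against the quisinostat libraries of the other lines 4 did: the GSTM4,GSTM1 locus, AKR1B10, ALDH3A1 and SLC7A11. Over all higher loci, 71.5% and 49.1% did by these comparisons. The list's median difference under quisinostat was -0.31. Summed over the list, the level went from 3732 to 2647 FPKM in SW780 cells. It went from 2000 to 3625 FPKM in RT4 cells and from 1768 to 1880 FPKM in RT112 cells. SW780 was thus the highest line without and not with the drug. The dose differed between the lines, and abundant members weigh most in a sum.

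**Figure D4:**
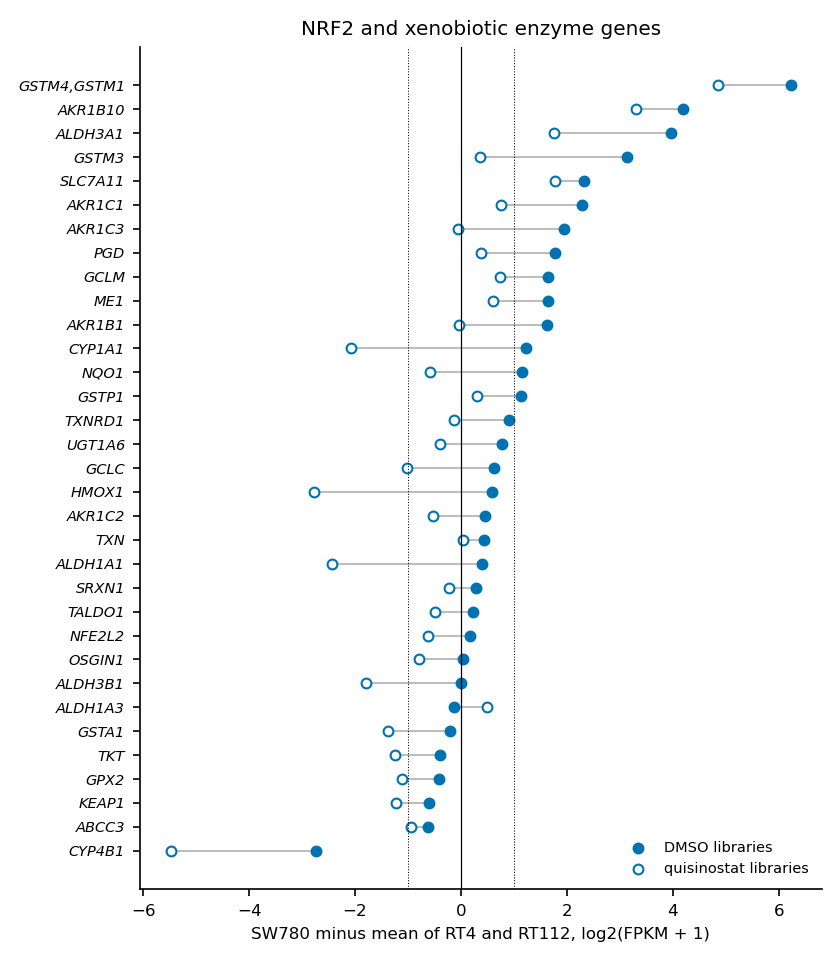
The plot shows 33 loci of the NRF2 and xenobiotic enzyme list ordered by the untreated difference, with SW780 minus the mean of RT4 and RT112 on log2(FPKM + 1) on the horizontal axis, filled for the DMSO and open for the quisinostat libraries, and dotted lines at -1 and 1. In the DMSO libraries 14 of these loci lie at 1 or above, and 4 of them still do in the quisinostat libraries.

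FGFR3 itself was lower in SW780. It was at 19.96 FPKM in untreated RT4, 17.2 FPKM in RT112 and 2.49 FPKM in SW780 cells, and under quisinostat at 6.12, 32.8 and 0.62 FPKM. The untreated difference was -2.49, and the limma difference was -2.87 (SE 0.52, adjusted p 0.0615), which misses the threshold. TACC3, the fusion partner in RT4 and RT112 cells, was at 65.9, 84.5 and 36.4 FPKM untreated. BAIAP2L1, the gene symbol closest to the partner named in the SW780 label, was at 10.1, 9.90 and 11.1 FPKM. Gene-level values do not separate fusion transcripts from those of the intact genes.

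Among 24 loci of the FGF receptor pathway, 8 (33.3%) were lower in untreated SW780 cells against 8.9% of all loci, and 1 was higher against 6.28%. The 8 include the fusion partner gene TACC3 and, with the largest difference, a locus for which RT112 alone was high. Only FGFR3 and DUSP5 among them were apart from both lines, and the list's median difference was -0.39. DUSP5, a phosphatase of ERK, was at 14.6, 37.5 and 5.92 FPKM in untreated RT4, RT112 and SW780 cells. DUSP6, another ERK phosphatase, was at 10.6, 29.8 and 5.70 FPKM, and the transcription factor gene ETV4 at 5.68, 25.1 and 3.37 FPKM. SPRY4, a feedback inhibitor of receptor signalling, was at 13.2, 2.53 and 1.27 FPKM and SPRY1 at 4.62, 1.29 and 0.48 FPKM, so SW780 was the lowest line for each of these 5 genes. Other feedback and target genes of the list differed in order: DUSP4 was highest in SW780, at 5.34, 6.17 and 9.16 FPKM, while ETV5 (4.0, 9.9 and 4.14 FPKM) and SPRED1 (0.42, 2.76 and 1.56 FPKM) were between the other lines.

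Against the quisinostat libraries of the other lines, 4 of the 8 lower loci were still lower by 1 or more, namely FGFR3, TACC3, DUSP5 and SPRY1. Over all lower loci 62.6% were. The list's median difference in these libraries was 0.04. DUSP6 stood there at 22.4 FPKM in SW780 cells, above 6.67 in RT4 and 12.4 in RT112 cells. EPHA2, a receptor tyrosine kinase, was the higher member, at 9.81, 17.96 and 34.9 FPKM untreated. No locus of this list passed limma at an adjusted p under 0.05, and 1 higher and 5 lower of 24 had an unadjusted p under 0.05, against 12.8% and 10.4% of all tested loci.

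Of 11 loci for EGFR and ERBB receptors, their ligands and regulators, 3 (27.3%) were higher in untreated SW780 cells, all of them ligands and above both lines. Another 2 (18.2%) were lower, where 6.28% of all loci were higher and 8.9% lower. The lower loci were the EGFR ligand gene HBEGF, at 1.14, 11.7 and 2.51 FPKM in untreated RT4, RT112 and SW780 cells, and LRIG1, at 0.07, 2.78 and 0.10 FPKM. For both, RT112 alone was high. Of the higher loci, EREG was at 0.02, 0 and 4.38 FPKM, AREG at 0.61, 3.41 and 8.67 FPKM, and NRG1, which binds ERBB3 and ERBB4, at 0.15, 0 and 1.97 FPKM. TGFA, another EGFR ligand gene, was at 6.17, 9.33 and 5.43 FPKM. The 3 higher loci lasted, and SW780 had more of each under quisinostat, at 25.4 FPKM for EREG, 49.5 FPKM for AREG and 5.28 FPKM for NRG1. EREG was higher in limma (difference 3.32, SE 0.52, adjusted p 0.0495). The receptors differed little untreated: EGFR was at 18.4, 18.4 and 20.8 FPKM and the locus of ERBB3 and PA2G4 at 64.1, 62.8 and 53.7 FPKM. ERBB2 was at 41.2, 14.1 and 15.8 FPKM, with SW780 next to RT112.

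Many cytosolic ribosomal protein genes were lower. Of 78 loci, 20 (25.6%) were lower by 1 or more and 0 were higher, against 8.9% and 6.28% of all loci, and the median difference was -0.63. RPS6 was at 442.4, 493.1 and 171.1 FPKM in untreated RT4, RT112 and SW780 cells and RPS13 at 40.3, 41.7 and 14.7 FPKM. RPL5 was at 459.1, 418.5 and 182.7 FPKM and RPS28 at 79.2, 25.3 and 6.36 FPKM. These 4 were below both lines, and RPS6, RPS13 and RPL5 were lower in limma (adjusted p 0.0343 to 0.0495), while 0 members were higher in it. RPL11 was highest in SW780, at 119, 150.2 and 182.4 FPKM.

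The reference line mattered for the ribosomal genes: 27 of 78 were lower by 1 against RT4 alone and 8 against RT112 alone. Under quisinostat 12 of the 20 were still lower against the other quisinostat libraries, where 62.6% of all lower loci were. Many processed pseudogenes resemble these genes, and how their reads were assigned is not stated. Transcript GC content moved with the difference: Spearman's rho over 8341 loci was -0.36 between GC content and SW780 minus RT4 and 0.04 for SW780 minus RT112, given as a description across genes. After a lowess correction for GC content, 16 ribosomal loci were still lower.

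Of 20 loci for p53 target genes, 6 (30.0%) were higher against 6.28% of all loci and 2 (10.0%) lower against 8.9%, with 5 above both lines against 4.15%, and a median difference of 0.45. FAS, a death receptor, was at 1.44, 1.34 and 9.12 FPKM in untreated RT4, RT112 and SW780 cells and at 1.34, 1.34 and 7.81 FPKM under quisinostat (adjusted p 0.0374 by limma). TNFRSF10B, a receptor for TRAIL, was at 21.5, 14.9 and 48.6 FPKM untreated (adjusted p 0.0487 by limma). DDB2, a DNA damage recognition protein, was at 10.1, 10.5 and 33.9 FPKM, RRM2B, a ribonucleotide reductase subunit, at 3.71, 8.06 and 18.3 FPKM, and ZMAT3 at 1.92, 1.96 and 5.25 FPKM. CDKN1A, the CDK inhibitor p21, was at 41.1, 14.2 and 46.3 FPKM, so SW780 lay next to RT4, and MDM2 was at 5.75, 4.12 and 8.18 FPKM. GDF15 was the lowest in SW780, at 32.4, 6.43 and 4.79 FPKM.

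Interferon-stimulated genes were mixed. Of 22 loci, 6 (27.3%) were higher against 6.28% of all loci and 2 (9.09%) lower against 8.9%, and BST2, ISG15, IFI6 and IFIT3 were above both lines. ISG15, a ubiquitin-like modifier, was at 1.40, 1.20 and 6.98 FPKM in untreated RT4, RT112 and SW780 cells, and IFIT3 at 6.02, 3.70 and 16.1 FPKM. OAS1, which senses double-stranded RNA, was at 21.3, 64.8 and 11.5 FPKM, so SW780 was lowest. Against the quisinostat libraries of the other lines 1 of the 6, BST2, kept its difference, where 49.1% of all higher loci did. IFI6, for example, was at 31.4, 21.98 and 26.1 FPKM there. Limma made 0 calls in this list at an adjusted p under 0.05, and 2 higher and 3 lower of 21 at an unadjusted p under 0.05, close to the 12.8% and 10.4% of all tested loci.

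Cancer-testis genes are silent in most adult tissues outside the germ line. Of 10 loci, 3 (30.0%) were higher and 0 lower, against 6.28% and 8.9% of all loci, and all 3 are on chromosome X. CTAG2 was at 0, 0.09 and 9.44 FPKM in untreated RT4, RT112 and SW780 cells, XAGE1A at 5.76 FPKM and XAGE1B at 7.6 FPKM in SW780 cells with both listed at 0 in the other lines. They passed limma, with adjusted p of 0.0241, 0.0352 and 0.0276. XAGE1A and XAGE1B are copies of one another, so their split is uncertain. Under quisinostat, XAGE1A and XAGE1B were at 17.7 and 22.96 FPKM in SW780 cells and still at 0 in both other lines. MAGEC2, at 0, 0.57 and 1.01 FPKM untreated, was at 0, 2.13 and 25.3 FPKM under quisinostat, and the list's median difference went from 0.64 to 3.05.

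**Figure D5:**
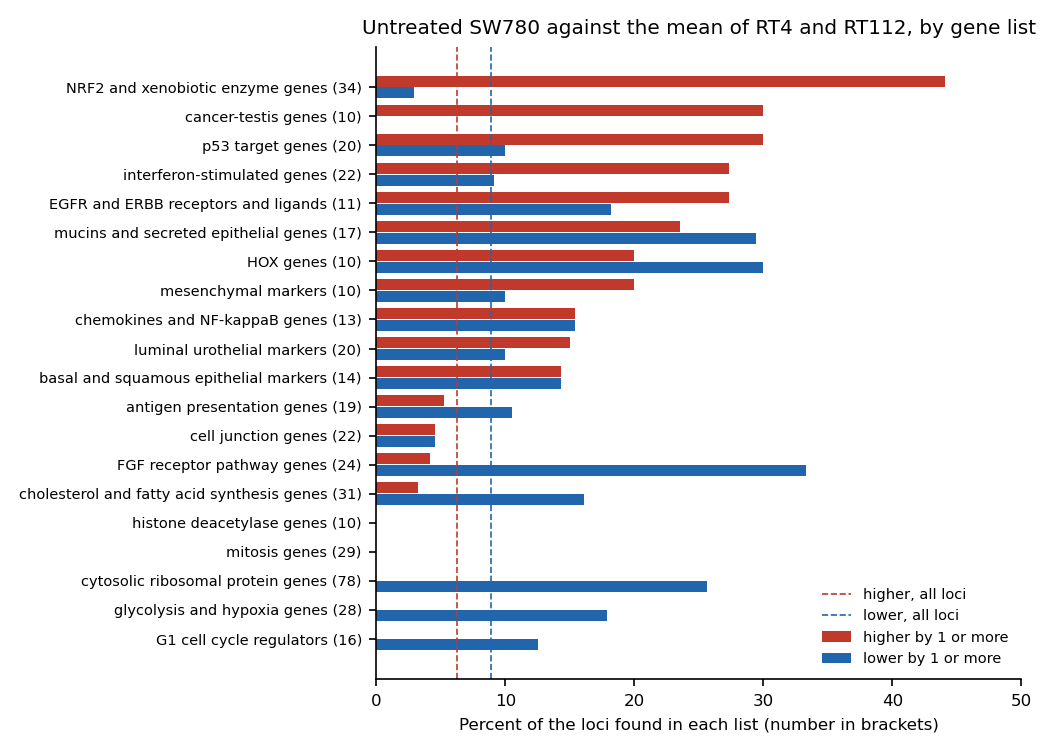
Share of loci, in percent, that are higher (red) or lower (blue) by 1 or more in untreated SW780 than in the mean of RT4 and RT112, for each gene list with at least 10 loci found, with dashed lines at the shares over all loci (6.28% and 8.9%). The NRF2 and xenobiotic list reaches 44.1% higher and the FGF receptor pathway list 33.3% lower, while mitosis and histone deacetylase genes have no bar.

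The urothelial identity of SW780 was checked on marker genes. Of 20 luminal markers, all found, 3 were higher and 2 lower, with a median of -0.17. Uroplakin UPK2, a protein of the urothelial plaque, was at 51.6, 5.55 and 36.2 FPKM in untreated RT4, RT112 and SW780 cells, PPARG at 67.3, 86.5 and 52.8 FPKM, and GATA3 at 41.8, 15.7 and 18.5 FPKM. Untreated SW780 cells thus expressed these markers at levels within or near the range of the other lines. KRT20, a keratin of umbrella cells, was low in all untreated lines, at 3.21, 1.11 and 0.36 FPKM. PSCA, a surface antigen, was the 1 luminal gene above both lines, at 9.06, 12.8 and 71.3 FPKM, and under quisinostat it was at 0.71, 10.4 and 4.0 FPKM.

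Of 14 basal and squamous loci, 2 (14.3%) were higher and 2 (14.3%) lower, against 6.28% and 8.9% of all loci. TP63, a transcription factor of basal cells, was at 46.5, 42.0 and 19.7 FPKM untreated, and at 39.0, 50.9 and 46.0 FPKM under quisinostat. Its difference was therefore gone in the treated libraries. SERPINB5 was above both lines, at 25.6, 45.0 and 113.7 FPKM, and the locus of KRT6A and KRT5 was at 0.04, 9.63 and 0.45 FPKM. KRT14 and VIM were not among the names of the table. CDH1, the epithelial cadherin, was at 114, 56.7 and 58.0 FPKM.

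Of 10 mesenchymal loci, 2 were above both lines, against 4.15% of all loci, and both are parts of caveolae. CAV1 was at 0.26, 59.0 and 177.6 FPKM in untreated RT4, RT112 and SW780 cells and CAVIN1 at 0.16, 2.03 and 15.7 FPKM. Under quisinostat CAV1 was at 4.88, 198.8 and 167.3 FPKM, so RT112 was then above SW780. Their limma differences were 3.33 (SE 0.48, adjusted p 0.0422) and 2.54 (SE 0.35, adjusted p 0.0395). That of CAV1 rests mostly on RT4, since SW780 was above RT112 in the DMSO libraries only. S100A4 was lower than the mean, at 3.18, 66.1 and 4.88 FPKM, which is the high level of RT112.

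Markers of other tissues were few in the table. Of 18 glandular symbols 5 loci were found, 2 higher and 3 lower, and CEACAM6 was at 0.05, 21.1 and 89.5 FPKM (adjusted p 0.0121 by limma) and ANXA10 at 57.2, 86.9 and 176.4 FPKM. REG4 was at 6.76, 0 and 0 FPKM and LGALS4 at 4.60, 0.04 and 0.04 FPKM in untreated RT4, RT112 and SW780 cells. For both, RT4 alone was high. Of 15 stromal, endothelial and immune symbols 3 loci were found, and their summed level was 1.16, 135.4 and 10.97 FPKM in untreated RT4, RT112 and SW780 cells, mostly LUM in RT112. Of 5 neuronal loci 1 was higher, NEFL, at 0.46, 0 and 1.71 FPKM. The lists of this paragraph held too few loci to set against the 6.28% higher and 8.9% lower of all loci.

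Of 31 loci for cholesterol and fatty acid synthesis, 5 (16.1%) were lower and 1 (3.23%) higher, against 8.9% and 6.28% of all loci. INSIG1, which holds back sterol synthesis, was at 18.2, 28.96 and 7.67 FPKM in untreated RT4, RT112 and SW780 cells (adjusted p 0.0384 by limma), and SREBF2, the sterol-responsive transcription factor, at 29.02, 31.7 and 12.3 FPKM. FADS1, a fatty acid desaturase, was at 11.4, 7.95 and 66.7 FPKM and kept a difference of 1.21 under quisinostat.

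Of 17 mucins and secreted epithelial proteins, 4 (23.5%) were higher and 5 (29.4%) lower, against 6.28% and 8.9% of all loci. S100A9, a calcium-binding protein of inflamed epithelium, was at 41.5, 293.5 and 11.6 FPKM, LCN2 at 3.91, 18.5 and 0.96 FPKM and LY6E at 49.3, 92.3 and 11.7 FPKM. KLK6, a secreted protease, was at 0, 1.81 and 11.3 FPKM (adjusted p 0.0263 by limma), and the locus of MUC20 and MUC20P1 at 2.78, 2.82 and 7.90 FPKM. SW780 was below both lines for S100A9, LCN2 and LY6E, and above both for KLK6 and the MUC20 locus.

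Of 28 glycolysis and hypoxia loci, 5 (17.9%) were lower and 0 higher, with 0 apart from both lines. Over all loci 8.9% were lower and 6.28% higher, also for comparison with the lists that follow. NDRG1, a hypoxia-induced gene, was at 5.94, 22.5 and 2.78 FPKM in untreated RT4, RT112 and SW780 cells, CA9 at 0.46, 23.8 and 0.78 FPKM and CA12 at 68.4, 0.02 and 0.006 FPKM. The carbonic anhydrases CA9 and CA12 were thus each high in 1 other line only. Of 19 antigen presentation loci, 1 was higher and 2 lower: PSMB9, an immunoproteasome subunit, was at 7.47, 3.91 and 23.9 FPKM. Of 13 chemokine and NF-kappaB loci, 2 were higher and 2 lower, and CXCL16 was at 7.23, 5.70 and 17.9 FPKM. Of 10 HOX loci, 2 were higher and 3 lower, with HOXA5 at 0.09, 0.09 and 1.8 FPKM and HOXA10 at 2.56, 0 and 6.18 FPKM. MT2A was at 1.56, 2.13 and 7.73 FPKM and was the 1 higher of 3 metallothionein loci.

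Of 29 mitosis loci and of 10 histone deacetylase and sirtuin loci, 0 were higher or lower by 1, against 6.28% and 8.9% of all loci. HDAC1 was at 64.4, 72.7 and 79.2 FPKM in untreated RT4, RT112 and SW780 cells, HDAC2 at 7.48, 14.04 and 9.51 FPKM and HDAC3 at 49.6, 46.7 and 54.0 FPKM. Of 16 G1 regulators 2 were lower and 0 higher, and of 22 cell junction loci 1 was higher and 1 lower. HDGF, a growth factor gene, was at 103.7, 200.4 and 172.8 FPKM. Among common reference genes, ACTB was at 574, 423.6 and 468.6 FPKM and GAPDH at 1990, 1304 and 1306 FPKM.

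Whether each difference lasts was read from the SW780 quisinostat library. Against the same untreated mean of RT4 and RT112, 452 of the 632 higher loci (71.5%) and 643 of the 896 lower loci (71.8%) kept a difference of 1 or more on their side. This comparison shares its reference libraries with the one that chose the loci. Against the quisinostat libraries of RT4 and RT112, which it does not share, 310 of the higher (49.1%) and 561 of the lower loci (62.6%) did, where 6.86% and 12.7% of all loci were higher and lower by 1. Of the higher loci, 17 were on the opposite side by 1 or more in that comparison, and of the lower loci 9.

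Of the loci apart from both lines, 236 of 418 higher (56.5%) and 172 of 245 lower (70.2%) lasted against the other quisinostat libraries. Of the 182 higher loci that did not, SW780 alone was lower by 1 or more under quisinostat in 44, the mean of the other lines alone was higher by 1 or more in 53, both held in 10 and neither in 75. Of the 73 lower loci that did not last, SW780 was higher by 1 or more under quisinostat in 31 and the other lines lower in 9. Dose differed between the lines, so these counts do not compare responses at a matched dose.

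Against the untreated mean of the other lines, the loss from the SW780 DMSO to the SW780 quisinostat library was largest in PSCA, ALDH3A1, TCOF1, CLEC12A, ANKRD22 and CSRP2, among loci apart from both lines with a single gene name. CLEC12A, a C-type lectin receptor, was at 0.06, 0.43 and 10.3 FPKM in untreated RT4, RT112 and SW780 cells and at 0.79 FPKM in SW780 cells under quisinostat. ANKRD22 was lower in untreated SW780 cells, at 11.2, 11.7 and 2.19 FPKM, and was at 24.7, 10.2 and 22.1 FPKM under quisinostat. CSRP2, a LIM domain protein, was at 21.8, 14.5 and 6.26 FPKM untreated and at 41.4 FPKM in SW780 cells under quisinostat. There it was at 141.1 FPKM in RT4 and 35.7 FPKM in RT112 cells. SW780 thus stayed below the mean of the other lines by 1.08 through RT4 and lay above RT112. At the other end, 19 loci below both lines were at 0 in both SW780 libraries, among them OSTF1, GNAI2, RRBP1, MAPKAPK3, IFRD2 and LOXL1, and a value at 0 in both cannot show a move downward.

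Some genes were near 0 in both other lines before treatment. Of the 418 loci higher than both lines, 205 were under 1 FPKM in both untreated RT4 and RT112 cells, and 124 of these stayed under 1 FPKM in both of their quisinostat libraries. By 1 or more on the log2 scale, 21.0% of the 205 were higher under quisinostat in RT4 and 17.1% in RT112. Of the 687 other loci under 1 FPKM in both lines, 39.3% and 23.3% were. How the rows were selected is not given, and a selection by level in any library would favour low loci that rose. These shares therefore cannot show which loci rose more often. Conversely, of 105 loci below both lines and under 1 FPKM in untreated SW780 cells, 18 were higher by 1 or more in SW780 cells under quisinostat. Over all loci, 7.73% were, but these were not chosen for a low level. The comparison is therefore not matched, and no excess can be read from it.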

How the data were processed

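RNA of 6 libraries was analysed, 1 for each of 3 bladder cancer lines with DMSO or quisinostat. The authors selected polyadenylated RNA for stranded libraries, which were read on an Illumina NovaSeq and processed with HISAT2, StringTie and Ballgown. The submitters' processing notes name CASAVA 1.8.2, Trimmomatic 0.36, HISAT2 2.2.1, SAMtools 1.15.1, StringTie 2.2.1 and GRCh38. Which annotation release was used, and how the rows were selected, is not given in the sources used here. The values deposited by the authors are FPKM, so no count model was used and no interval for counting error could be computed. The table's 10515 rows hold 10066 assembled loci, and 1 value per locus was kept.

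The difference was log2(FPKM + 1) of SW780 minus log2 of the mean FPKM of RT4 and RT112, plus 1, counted at 1 or more, without a test. limma 3.58.1 in R 4.3.3 used log2(FPKM + 1) of loci whose mean FPKM reached 1. Line and treatment were the terms, the prior variance followed the mean level, and p-values had Benjamini-Hochberg adjustment. On simulated data for this comparison (9430 loci), 45 of 100 loci shifted by 2 and 66 of 100 shifted by 3 were recovered, and 4 unchanged loci were called. GC content and positions came from GENCODE 29 on GRCh38, and 89.6% of loci had a GC value.

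Members and the 24 gene lists were chosen with earlier results of these data known. Genes named are the 12 highest and 12 lowest loci with exactly 1 gene name by the difference to the nearer line, fusion, receptor, HDAC, marker and reference genes, up to 4 list members a side apart from both lines, and the 6 loci with the largest loss and the 6 with the smallest move under quisinostat. Other list members, the neighbouring loci and the promoter genes were named after their values were seen. Alternatives are given below. All 6 columns of values were used. Some genes are not reported here by name, though they count in the totals. Analysis used Python 3.11.15.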

Additional observations from a re-analysis of the deposited data

Results flagged for a closer look

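In 3 loci with a single gene name, SW780 stood apart from both lines untreated and 1 or more on the opposite side of their mean under quisinostat, and SW780 and 1 other line moved in opposite directions by 1 or more. Whether the responses differ was not tested, since each rests on 1 library. TCOF1 was at 11.7 FPKM in untreated and 0.58 FPKM in treated SW780 cells, and at 0.15 and 14.4 FPKM in RT112 cells, so its difference went from 3.52 to -2.38. PIGQ, which acts in the synthesis of membrane anchors, went from 2.87 to 0.66 FPKM in SW780 cells and from 0.02 to 5.41 FPKM in RT112 cells, and its difference from 1.94 to -1.22. FTH1P2, a pseudogene that resembles the ferritin gene FTH1 and may share its reads, went from 23.7 to 9.17 FPKM in SW780 and from 10.9 to 38.2 FPKM in RT4 cells, and its difference from 1.14 to -1.12.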

How the results depend on the processing

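The counts of loci by size depended on the pseudocount and on filters. Higher, lower, above both and below both were 632, 896, 418 and 245 as reported. With a pseudocount of 0.1 they were 1046, 1408, 675 and 495, with 0.01 they were 1121, 1503, 726 and 553, with a mean FPKM of at least 5 they were 228, 431, 132 and 148, and with a limit of 2 they were 121, 172, 93 and 40. After the GC correction 595 loci were lower. Against 1 line alone, 1020 to 1106 loci were higher and 699 to 1242 lower. With a pseudocount of 0.1, 818 higher and 979 lower loci lasted. In limma, higher and lower calls were 97 and 84, and 413 and 269 of 8646 after a GC correction, 62 and 57 at a mean FPKM of 5, and 62 and 58 with no treatment term. With the DMSO libraries alone, RT4 and RT112 as 1 arm and SW780 assumed to vary like them, limma made 0 and 0 calls (184 and 97 at an unadjusted p under 0.05). Leaving out 1 library gave 0 to 80 higher and 0 to 80 lower calls. The cause was not tested.

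The limma difference changed sign in 6 named genes without 1 library: TCOF1 (-1.33 to 3.52 over the libraries left out), ANKRD22 (-1.97 to 0.45), IFI6 (-0.01 to 1.78), IFIT3 (-0.45 to 1.57), the MUC20 locus (-0.49 to 1.23) and TP63 (-1.12 to 0.04). None of these 6 had passed the test. No replicate block by number could be fitted because each group has 1 replicate, and the line is already a term of the fit. No paired analysis was possible because the groups compared are different cell lines. Of 33 named loci that passed limma, 24 to 33 still passed under the other settings, except for 4 without the RT4 DMSO library and 0 without the SW780 DMSO, SW780 quisinostat or RT4 quisinostat library or with the DMSO libraries alone. Over the NRF2 list 14 to 18 loci were higher under the alternatives other than the limit of 2, which left 6. The rule for loci near 0 in SW780 gave 52 in place of 28 at 0.5 FPKM or less and 13 when both other lines had to reach 5 FPKM, limits chosen after seeing the data. Depth is unknown, so values near 0 carry no stated error.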

Other observations

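Differences also varied along the genome. Over 8326 placed loci whose mean FPKM reached 1 in the DMSO libraries, the median difference by chromosome lay between -0.53 on chromosome 19 and 0.24 on chromosome 16. On chromosome 19, 24.5% of 535 loci were lower by 1 or more, with a median of -0.77 against RT4 and -0.06 against RT112. Chromosomes 9 and 3 followed, with 12.2% and 11.7% lower. Transcript GC content moved with SW780 minus RT4 (Spearman's rho -0.36) and little with SW780 minus RT112 (0.04). Its part in the differences between chromosomes was not tested. In runs of 25 consecutive loci, the run from VAMP3 to AGTRAP on chromosome 1 had a median of 0.93 against RT4 and 0.62 against RT112, and 23 of its 25 loci were above the mean of the other lines. The run from TP53INP2 to RBL1 on chromosome 20 had medians of 0.69 and 0.73, with 22 of 25 above. On chromosome 19 the run from CALR to CASP14 had medians of -1.14 and -0.72, and that from ZNF675 to FXYD3 had 0.80 and 0.64. These runs were picked for their values and carry no test. The medians under quisinostat were 0.72, 0.51, -1.15 and 0.74 in the same order.

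Promoters of the loci apart from both lines less often had a high ratio of observed to expected CpG. A ratio above 0.6 was found in 62.6% of 203 promoters of higher loci and in 74.2% of 155 of lower loci. It was found in 85.0% of the 6668 promoters of single-name loci. The median ratio was 0.752, 0.829 and 0.852 in the same order, so that of the lower loci was close to that of all. Loci with low values are more common among the higher ones, and their part in this was not tested.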
